A study of Mus musculus with 6 samples.

Results

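The genes described here are 72 mouse genes of the primary cilium and the centrosome, chosen from 21757 protein-coding genes by their names. They are the protein-coding genes on standard chromosomes of the GENCODE M39 annotation whose symbol starts with Ift, Bbs, Nphp, Tctn or Cep followed by a number. The rule uses names and no measured value, although results of these data were known when it was written. The set holds 19 Ift, 8 Bbs, 3 Nphp, 3 Tctn and 39 Cep genes. What was measured is the accessibility of their promoters in the kidney cortex by ATAC-seq, an assay in which DNA not covered by nucleosomes is cut and tagged by a transposase and then sequenced.

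The libraries came from nuclei of kidney cortex in 2 groups of mice, 3 WT and 3 Acly cKO libraries, all labelled as control in treatment. By the study's methods, the WT mice were littermates that carried Acly fl/fl alleles without a Cre transgene. The Acly cKO mice carried the same alleles with Ksp-Cre (Cdh16-Cre), which recombines broadly in tubule epithelium, so that other kidney cells are not targeted. Acly encodes ATP-citrate lyase, which makes acetyl-CoA outside the mitochondria. The age of the mice used for ATAC-seq was not given in the sources used here. The labels place 2 WT libraries in batch 1 and 1 in batch 2, and 2 Acly cKO libraries in batch 4 and 1 in batch 5, and an effect of batch and one of genotype cannot be told apart. By its methods the study also used WT libraries from an earlier deposit, and it is unknown from the files whether these entered the call described next. The peak list analysed here is a single call over pooled libraries, to judge by the names of its peaks, and holds no column for a single library. WT and Acly cKO kidneys were therefore not compared, no value has a replicate error, and the depth of single libraries is unknown. Nuclei of all cortical cell types are mixed, so a difference in cell number and a difference in accessibility per cell cannot be told apart.

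A primary cilium is a single antenna that grows from the older centriole of a cell and senses flow and ligands. In the kidney it projects from tubule cells into the lumen, and inherited defects in its genes cause cystic kidney disease, nephronophthisis and Bardet-Biedl syndrome. Intraflagellar transport (IFT) trains carry proteins along the cilium, the BBSome carries membrane proteins out of it, and a transition zone at its base controls entry. The centrosome, which is built around the centrioles, organises microtubules, and its mother centriole becomes the basal body of the cilium. RFX transcription factors are known to drive many ciliary genes through the X-box, a pair of inverted arms in the promoter.

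The X-box was searched as the 6-base arm GTTNCC, a spacer of 1 to 3 bases and the reverse complement of the arm, GGNAAC, with at most 1 mismatch in the 10 fixed bases. The window ran from 250 bp before to 50 bp after the transcription start site (TSS) of the canonical transcript. The pattern equals its own reverse complement, so both strands were covered. The 8 genes that matched with no mismatch are shown here because only 0.685% of all protein-coding promoters held such a sequence. Each is read from GRCm39 on the strand of the gene, 5′ to 3′, with the X-box in capitals and 7 bases on each side in lower case.
Tctn3: cccagcgGTTGCCAGGTAACgggaacc
Cep41: gtcccgcGTTGCCCTTGGCAACcattgag
Bbs7: cgccccgGTTGCCTTGGAAACcggccag
Cep19: gccttctGTTGCCTTGGGAACgatcctc
Tctn1: tgtgactGTTGCCCGGGCAACagacggg
Ift56: cggcggcGTTGCCGTGGAAACggagctc
Cep295nl: ctctgctGTTCCCATGGCAACagcctcc
Ift70a2: ttggcttGTTGCCATGGGAACaagcaca

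In capitals, the site of Tctn3 lies at chr19:40600803-40600815, of Cep41 at chr6:30693865-30693879, of Bbs7 at chr3:36667646-36667659, and of Cep19 at chr16:31918629-31918642. That of Tctn1 lies at chr5:122402474-122402487, of Ift56 at chr6:38358426-38358439, of Cep295nl at chr11:118233383-118233396, and of Ift70a2 at chr2:75808534-75808547. The sites of Tctn3, Cep41, Cep295nl and Ift70a2 are upstream of the TSS, and that of Bbs7 spans the TSS with its centre 4 bp upstream. Those of Cep19, Tctn1 and Ift56 are in the 5′ untranslated region (UTR). The spacer between the arms is 1 base in Tctn3, 3 bases in Cep41 and 2 bases in the other six genes.

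Every one of the 72 genes had an accessible interval within 1 kb of its TSS, against 75.8% of all protein-coding genes (16499 of 21757). An interval is a distinct region of the peak list, and it takes the values of its highest summit. The values are the fold enrichment, a ratio of coverage at the summit to background, and the -log10 of the q-value, both as the authors' caller wrote them. In 71 of the 72 genes the interval covered the TSS itself, a count not made over all promoters with an interval. The exception was Cep164, described further on. The median fold enrichment over the members was 50.2 and ranged from 1.83 to 105, while the median over all promoters with an interval was 30.1. Of the members, 58 (80.6%) stood at or above the median of all promoters with an interval and 38 (52.8%) at or above their upper quartile of 48.3. Only 4 stood under their lower quartile of 12.4. The median -log10 q was 999 for the members and 497 for all promoters with an interval. These are descriptions of lists, and no list was tested against other genes.

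The 2 values give the same order. The list of 749750 summits holds 1549 different fold enrichments and 1549 different pairs of fold enrichment and -log10 q. All fold enrichments are whole multiples of a step of 0.0655, within 0.02 of a step, so a value counts coverage over a single background. Read by the caller's formula, (coverage + 1) over (background + 1), the member values stand for coverages from 27 to 1605. Exact Poisson intervals from these coverages are given at a confidence level of 95% and cover counting error only.

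The interval was narrower in the members, with a median width of 2469 bp against 2955 bp over all promoters with an interval, and it held a median of 4 summits against 6. The highest summit sat close to the TSS, at a median of -7.5 bp, where negative is upstream. It lay within 100 bp of the TSS in 52 members (72.2%) and in 50.6% of all promoters with an interval. In 39 members the highest summit was upstream of the TSS, in 31 it was in the 5′ UTR, in Bbs4 it was in intron 1, and in Ift70a2 it was in a coding exon. The 6 members whose highest summit was over 400 bp away were Cep57 at -467 bp, Nphp4 at -507 bp, Bbs2 at 453 bp, Cep57l1 at 439 bp, Ift20 at 406 bp and Cep164 at -903 bp. For Bbs2 the summit nearest to the TSS had a fold enrichment of 3.80 against 55.6 at the highest, and for Ift20 it had 11.9 against 52.4. In both genes the highest summit lay inside the 5′ end of the gene, not at its annotated start.

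**Figure D1:**
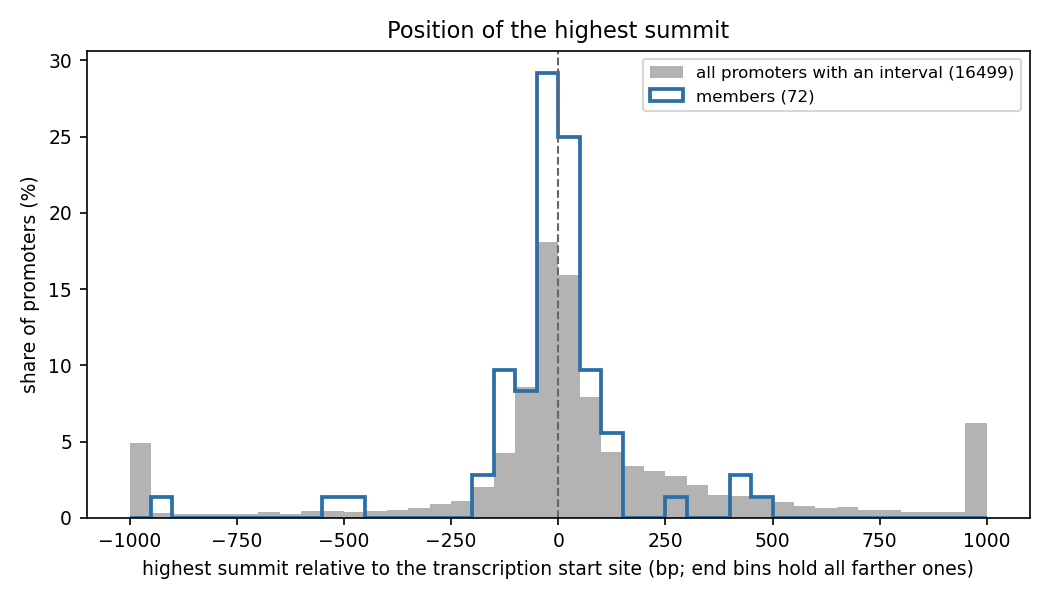
Position of the highest summit relative to the TSS in bp, as the share of promoters per bin of 50 bp, for the 72 members (line) and for all 16499 promoters with an interval (filled), with farther summits collected in the end bins. The members cluster at the TSS, with 72.2% within 100 bp against 50.6% of all, and none lies beyond 1 kb.

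Among the IFT genes, the IFT-A complex, which returns cargo from the ciliary tip, had high and low members. Ift140 had a fold enrichment of 67.2 and Ift122 of 64.2, while Ift43 had 24.7. The promoters of Ift140 and Ift122 are shared with genes that run the other way. The TSS of Cramp1 lies 140 bp from that of Ift140, and the TSS of Mbd4, a DNA repair glycosylase gene, lies 70 bp from that of Ift122. A shared interval cannot be divided between its genes.

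The peripheral part of IFT-B, which moves cargo outward, was led by Ift57, at a fold enrichment of 78.0 (-log10 q 1777). Ift80 stood at 53.2, Ift20, whose protein also sits at the Golgi, at 52.4, and Ift172 at 34.2. Ift80 shares its interval with Smc4, a condensin subunit gene 151 bp away, and Ift20 with Tnfaip1.

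The 12 genes of the IFT-B core had the lowest median of the role groups, 26.6, and spread widely. This median counts each of the Ift70 copies described below, at 19.1, 17.4 and 3.27. Each copy lies below this median, so counting the copies once would raise it. The order of the role groups without the copies was not computed, so the lowest rank holds only with each copy counted. Ift27, a small GTPase gene, had 69.5, and Ift25, whose protein pairs with that of Ift27, had 59.5. Ift74 had 56.6, while Ift81, whose protein binds tubulin together with IFT74, had 16.6. The counting intervals of the last pair do not overlap, since that of Ift81 ran from 14.6 to 18.7. Ift88, which is disrupted in the classic polycystic kidney mouse, had 40.1, Ift46 had 38.4, Ift52 had 28.9 and Ift22 had 24.4. Ift56 stood at 18.9 with a single summit in its interval.

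The Ift70 genes are near-identical copies on chromosome 2 that encode 1 subunit of the core. Ift70a1 had a fold enrichment of 19.1 (counting interval 16.9 to 21.4), Ift70b of 17.4 (15.4 to 19.6) and Ift70a2 of 3.27 (2.44 to 4.31). The first pair overlapped within counting error, and Ift70a2 lay below both. The authors kept reads that map uniquely, and the share of 50-base words within 500 bp of the TSS that occur once in the genome was 88.9% for Ift70a1, 83.5% for Ift70b and 71.1% for Ift70a2. The part of this in the low value of Ift70a2 was not tested. Ift70a2 was also the gene of the 3 with an X-box in its promoter window, whereas Ift70b had an X-box only in the 200 bp around its highest summit, which lay 132 bp inside the gene.

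The BBSome genes had a median of 36.3. Bbs9 had a fold enrichment of 56.0 and Bbs2 of 55.6. Bbs7 followed at 38.0, Bbs5 at 34.6 and Bbs4 at 31.2, with counting intervals that overlap from each gene to the next. Bbs1, often mutated in Bardet-Biedl syndrome, had the lowest value of the group, 7.59 (6.28 to 9.10), in an interval at chr19:4956396-4957853. Bbs10 and Bbs12, whose proteins act in the chaperonin complex that assembles the BBSome, stood higher, at 65.6 and 57.4.

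At the transition zone, the 3 tectonic genes each had their summit close upstream of the TSS. Tctn3 had a fold enrichment of 49.9, Tctn2 of 38.4 and Tctn1 of 33.8, with the highest summit 64, 48 and 33 bp upstream of the TSS. All 3 had an X-box. Nphp4, which encodes a protein of the same zone, had a fold enrichment of 55.8. At Nphp4 the highest summit lay 507 bp upstream of the TSS, and the summit nearest to the TSS had 11.5.

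**Figure D2:**
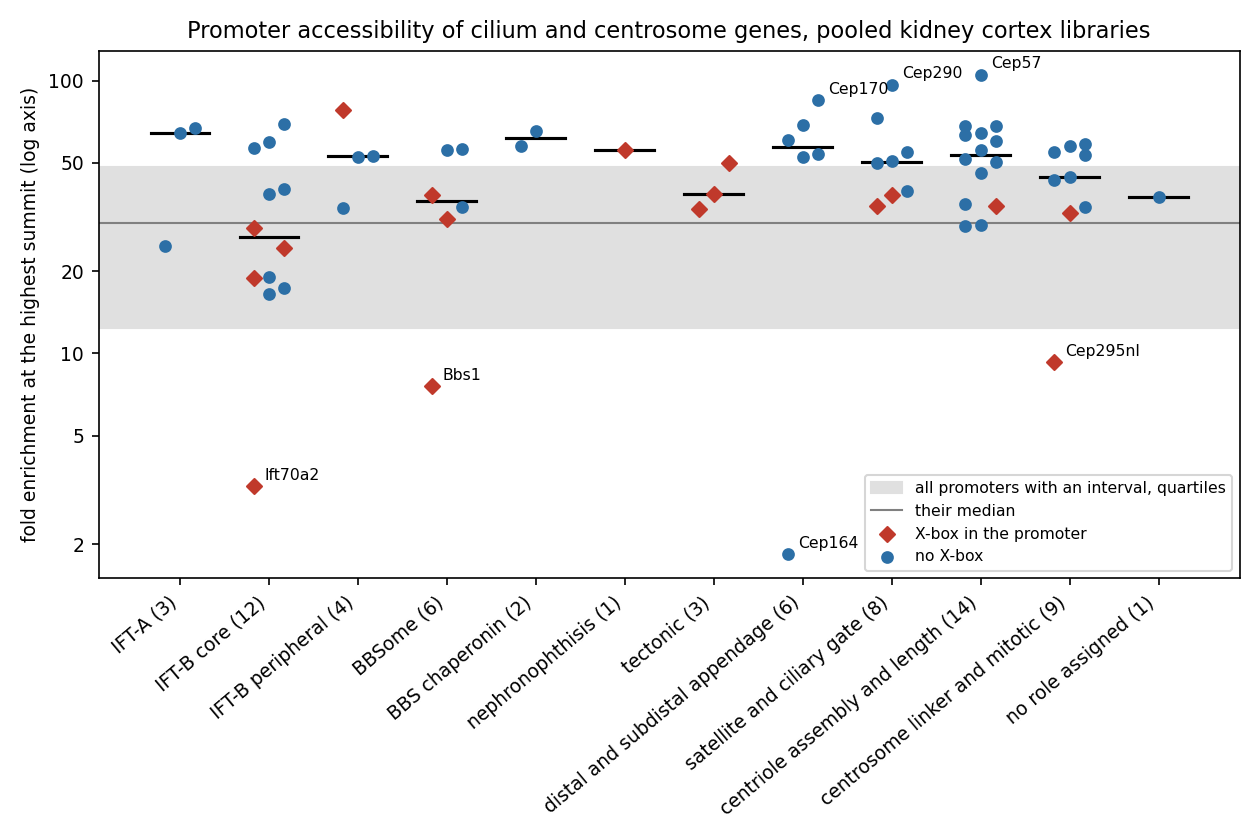
Fold enrichment at the highest summit (log axis) of 69 of the 72 members by role, with the number of genes shown in parentheses, a black bar at their median, red diamonds for promoters with an X-box and blue circles for those without, all from the pooled call with no replicates. The grey band spans the quartiles of all promoters with an interval, 12.4 to 48.3. The IFT-B core is the role with 12 genes, each Ift70 copy counted, whose median, 26.6, falls below the grey line at 30.1.

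The Cep genes had a median fold enrichment of 51.6, against 38.4 for the 33 Ift, Bbs, Nphp and Tctn genes. Cep57, which acts with Cep63 and Cep152 in centriole duplication, had the highest value of all members, 105 (100.1 to 110.4), in an interval at chr9:13735980-13740795 that it shares with Fam76b. This value stood above 99.7% of all promoters with an interval. It belongs to a summit 467 bp upstream of the Cep57 TSS, and the TSS of Fam76b lies 596 bp upstream. The summit nearest to the Cep57 TSS had a fold enrichment of 74.8. Cep290, a gate protein of the transition zone mutated in Joubert syndrome, came next at 96.8 (91.9 to 101.8), in an interval at chr10:100322005-100324472 shared with Tmtc3. The counting intervals of Cep57 and Cep290 overlap. Cep170, a subdistal appendage gene, followed at 84.7, and its interval is also that of Sdccag8, another centrosome gene.

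The bases around the highest summits of Cep57, Cep290 and Ift27 are shown because they are the strongest member promoters in which these 60 bases overlap no annotated exon. Each is on the strand of the gene, and the capitals mark a GC box, GGGCGG or its reverse complement. Cep57 is read from chr9:13738843-13738902, Cep290 from chr10:100323289-100323348 and Ift27 from chr15:78058460-78058519.
Cep57: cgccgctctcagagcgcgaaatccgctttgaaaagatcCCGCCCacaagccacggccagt
Cep290: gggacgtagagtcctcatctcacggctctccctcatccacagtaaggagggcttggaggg
Ift27: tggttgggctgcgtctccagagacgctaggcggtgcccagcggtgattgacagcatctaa

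In the promoter window, none of these 3 genes had an X-box with up to 1 mismatch, and the best match in each had 2 mismatches. The bases shown for Cep57, around a summit 467 bp upstream of the TSS, lie outside that window. Their GC box is therefore not among those counted further on. Cep20, a satellite gene, had a fold enrichment of 73.3, and Cep128, of the subdistal appendages, had 68.6. Cep350 and Cep152 each had 68.0, Cep97, which with CP110 caps centrioles, had 64.6, Cep295 had 63.1 and Cep83, of the distal appendages, had 60.6. These complete the 10 highest Cep genes. The next 19 ran from Cep120 at 60.0 to Cep15, to which no role was assigned, at 37.5. In falling order between these stood Cep68, Cep85l, Cep57l1, Cep85, Cep162, Cep170b, Cep70, Cep89, Cep192, Cep131, Cep44, Cep126, Cep63, Cep55, Cep95, Cep72 and Cep41. The linker gene Cep68 had 58.5, the satellite genes Cep131 and Cep72 had 50.9 and 39.5, and Cep55, which acts in abscission, had 44.2.

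Among the 10 lowest Cep genes were Cep43 at 35.4, Cep135 at 34.8, Cep19 at 34.7, Cep250 at 34.3, Cep112 at 32.7, Cep76 at 29.6, Cep78 at 29.3, Cep295nl at 9.30 and Cep164 at 1.83. Cep135 builds the centriole cartwheel and Cep250 links the centrioles. At Cep43 only 21.2% of the 50-base words near the TSS occur once in the genome, the lowest share of the 72 genes, and its part in the value was not tested. Cep170b stood apart in width. Its interval at chr12:112685064-112714398 was 29335 bp wide with 100 summits and ran over nearly the whole gene, which is 27.6 kb long. Its highest fold enrichment of 53.7 lay 115 bp upstream of the TSS.

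Cep164, the distal appendage gene needed to start cilium formation, was the weakest member. The only interval near its canonical TSS was 280 bp wide, at chr9:45735851-45736130, began 826 bp upstream, and had a fold enrichment of 1.83 (1.23 to 2.64) and a -log10 q of 1.91. An interval at chr9:45738678-45740912, with its highest summit 4943 bp upstream of that TSS, had a fold enrichment of 33.1 (-log10 q 568). It lies within 1 kb of the start of another protein-coding transcript of Cep164 and near the canonical TSS of no other protein-coding gene. With any coding transcript allowed, Cep164 took this value. The weak value is thus that of the annotated canonical start, and an accessible interval of the gene lies farther upstream.

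Near the 1 kb limit, the intervals just inside were weak. They included second intervals at Cep112, 931 bp from the TSS with a fold enrichment of 1.83, at Ift46 (929 bp, 2.49), and at Ift22 (839 bp, 2.95), besides that of Cep164. The first intervals just outside were at Bbs2, 1015 bp away with 1.70, at Ift81 (1085 bp, 2.23) and at Cep43 (1125 bp, 6.87).

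Of the 72 promoters, 18 (25%, Wilson interval 16.4% to 36.1%) had an X-box with at most 1 mismatch, against 4.83% of all protein-coding promoters (1050 of 21757) and 5.32% of those with an interval. With no mismatch, 8 members (11.1%) matched, against 0.685% of all promoters. The share was 39.4% (13 of 33) in the Ift, Bbs, Nphp and Tctn genes and 12.8% (5 of 39) in the Cep genes. These intervals cover counting error only and treat promoters as independent, which copies such as the Ift70 genes are not. Beside the 8 genes printed above, the other members with an X-box included Ift57, Nphp4, Tctn2, Cep135, Cep112, Bbs4, Ift52, Ift22 and Bbs1.

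The mismatches are counted from 1 at the first base of the left arm, with the expected base first. They were A12G in Ift57 and Bbs1, A12T in Tctn2 and Ift22, and, in Cep135 with its shorter spacer, A12C. Nphp4 and Bbs4 had T3C, Cep112 had G9A and Ift52 had G1T. The spacer was 2 bases in 14 of the 18 genes.

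All 18 sites lay inside the accessible interval of their gene, and 15 of them had their centre within 100 bp of its highest summit. The first count was largely fixed by the search window at the TSS, which the interval covered in 71 of the 72 members. The second follows in part from the highest summit lying within 100 bp of the TSS in 72.2% of members. Neither count was made over all 1050 promoters with an X-box. The centre was within 50 bp of the TSS in 12 of the 18 (66.7%), against 44.0% of all 1050 promoters with an X-box, and by their centres 11 sites were upstream and 7 in the 5′ UTR. At Ift22 the site lay 57 bp upstream of the TSS and the summit 19 bp downstream of the site. At Nphp4 the site lay 225 bp upstream and the summit another 282 bp upstream.

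**Figure D3:**
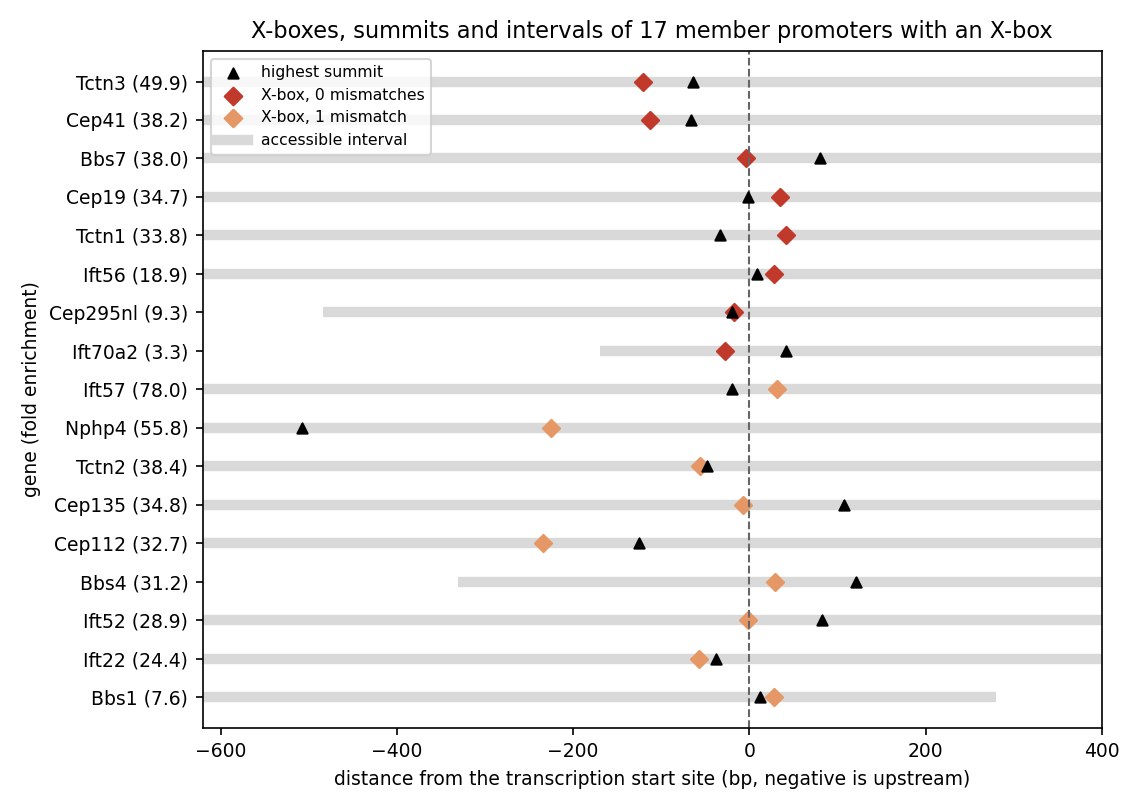
Distance from the TSS, in bp on the strand of the gene, of the X-box (diamonds), the highest summit (triangles) and the accessible interval (grey bars, cut at the edges of the plot) for 17 of the 18 members with an X-box, with the fold enrichment beside each name. Of the sites shown, 11 lie within 50 bp of the TSS, and Nphp4 is the gene whose summit lies farthest from its site.

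Members with an X-box had the lower median fold enrichment. It was 33.3, against 53.7 for the 54 members without one, and the ranges overlap, from 3.27 to 78.0 and from 1.83 to 105. Among the 10 highest members 1 had an X-box, Ift57, and among the 10 lowest 6 had one, among them Ift22, Ift56, Cep295nl, Bbs1 and Ift70a2. Over all protein-coding genes with an interval the medians were 31.8 with an X-box and 30.0 without. Family moves with this, since 13 of the 18 are Ift, Bbs, Nphp or Tctn genes, and so does sharing of the interval, since 1 of the 18, Cep19, shares its interval with another gene. Their part in the difference was not tested.

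Of the 72 members, 17 shared their interval with the TSS of another protein-coding gene within 1 kb. Sharing was not counted over all protein-coding genes. The median fold enrichment of the 17 was 52.6, against 44.2 for the other 55. A divergent partner, on the opposite strand within 1 kb upstream, was present at 10 members (13.9%) and at 5.04% of all protein-coding genes. The closest such partners were Pigx, 30 bp from Cep19, and Anapc13, a subunit gene of the anaphase-promoting complex, 54 bp from Cep63. The median fold enrichment of the 10 was 56.3.

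The promoters were CpG-rich. The ratio of observed to expected CpG in the promoter window had a median of 0.752 in the members and 0.652 in all promoters with an interval, at the same median GC content of 57.3%. Across promoters, Spearman's rho between the CpG ratio and the fold enrichment was 0.19 in the 72 members and 0.46 in the 16499 promoters with an interval, with all points from the same pooled call. Within the members it was 0.39 in the 33 Ift, Bbs, Nphp and Tctn genes and -0.07 in the 39 Cep genes. The lowest CpG ratios belonged to Cep295nl, with none, and to Cep164, with 0.137.

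**Figure D4:**
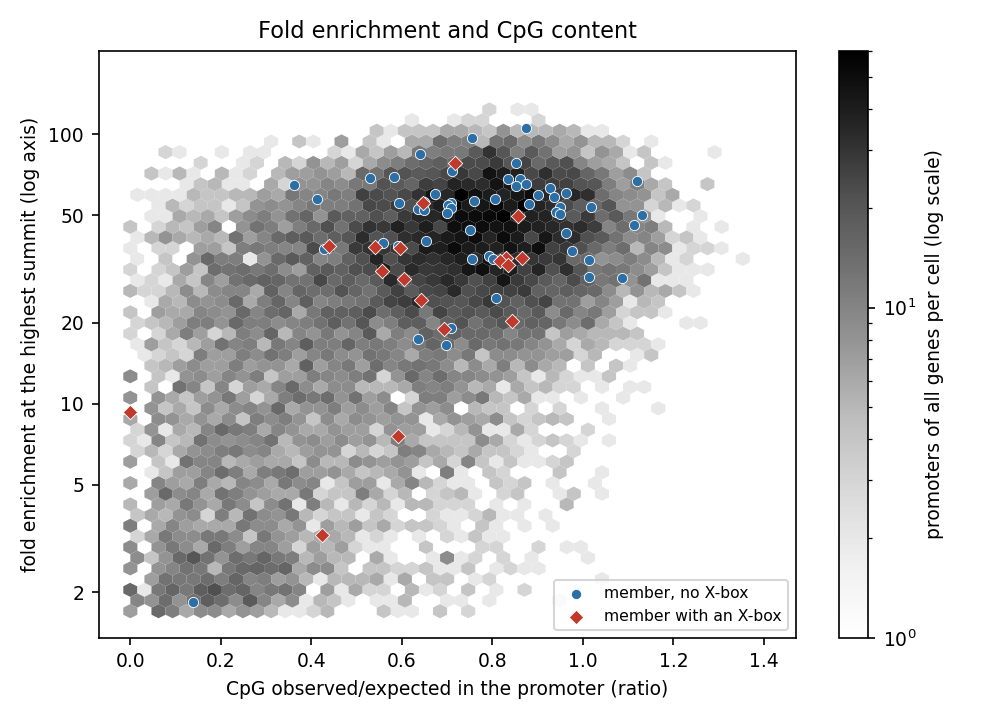
Ratio of observed to expected CpG in the promoter window against fold enrichment (log axis) for the members, with an X-box (diamonds) or without (circles), over the density of all 16499 promoters with an interval (grey). Most members sit in the dense upper right of the cloud, while Cep164, Ift70a2, Bbs1 and Cep295nl fall below a fold enrichment of 12.4.

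Other short motifs were searched on both strands in the same window, and shares are set beside those of all promoters with an interval. The CCAAT box, bound by NF-Y, was found in 35 members (48.6%) and in 38.7% of these promoters, with 20 of its members among the 33 Ift, Bbs, Nphp and Tctn genes. The GC box GGGCGG was found in 39 members (54.2%) and 53.9%. A TATA box (TATAAA) was found in 6 members (8.33%) and 8.84%, an ETS motif (CCGGAAG) in 6 (8.33%) and 12.8%, and an NRF1 motif (GCGCATGCG) in 2 (2.78%) and 2.70%. The YY1 motif AANATGGCG was found in 1 member (1.39%) and 2.84%, the forkhead motif GTAAACA in 3 (4.17%) and 2.84%, and the HNF1 half-site GTTAAT in 2 (2.78%) and 5.44%. The X-box arm alone was found in 47 members (65.3%) and 46.4%, and every exact X-box contains it.

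Outside the promoter, the members held 498 further intervals, 1.11 for each 10 kb of gene against 1.53 over all protein-coding genes, whose median gene was shorter, 19.2 kb against 40.6 kb. The median number of further intervals per gene was 5 in the members and 3 over all protein-coding genes. None was found in 6351 of the 21757 protein-coding genes and in 7 members, among them Ift70b, Ift70a2, Ift52, Cep135, Bbs4 and Cep170b. At Cep170b the promoter interval ran over nearly the whole gene, which left almost no room for a further interval. The next count was made for the members only. In 20 members the strongest further interval reached a fold enrichment of 10 and lay away from the canonical TSS of any protein-coding gene. Beside the upstream interval of Cep164, the strongest were at Ift81, 87458 bp past the TSS and beyond the canonical transcript, with 26.6, in intron 18 of Bbs9 with 25.1, in intron 6 of Cep89 with 23.9, in intron 8 of Cep192 with 19.6 and in intron 4 of Ift57 with 16.8. At Ift81 this value was above that of its own promoter, 16.6.

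Genes of the same structures with other names were taken as lists. The 18 other IFT and BBS genes, with the motors, all had an interval, with a median fold enrichment of 54.8, and 6 (33.3%) had an X-box. Arl13b, a small GTPase of the ciliary membrane, had 89.5 and the motor gene Kif17 had 17.9. Of the 18 other transition zone genes, 17 had an interval, with a median of 39.5, and 6 (33.3%) had an X-box. Rpgrip1, best known from photoreceptors, was the gene without an interval, while Invs, a nephronophthisis gene, had 92.1. The 22 other centrosome genes all had an interval, with a median of 45.8, and 2 (9.09%) had an X-box.

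Genes of the motile axoneme, the beating kind of cilium, had lower values as a list. Of 36 motile axoneme genes, 32 had an interval and their median fold enrichment was 15.6, while 13 (36.1%) had an X-box. Dnah5, a dynein heavy chain gene mutated in primary ciliary dyskinesia, had 1.83, and Dnah12, Dnah17, Dnah3 and Dnah8 had no interval, while Odad3 reached 87.9. The 12 genes of a list of regulators, made of the RFX family and 4 genes of the motile cilium program, all had an interval, with a median of 27.0. RFX members such as Rfx5 and Rfx6 are known for other roles. Rfx1 had 92.4, Rfx2 84.4, Rfx3 41.1 and Foxj1, the master regulator of motile cilia, 24.3. The 6 polycystic kidney genes all had an interval, with Pkd1 at 54.9, Pkd2 at 33.4 and Pkhd1 at 55.6, and none had an X-box, nor had any of the 8 Hedgehog genes, whose median was 19.4.

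The 31 proteasome subunit genes, which every cell needs, also all had an interval, with a median of 42.3, and 1 (3.23%) had an X-box. An interval at every gene of a list was thus seen outside the cilium too. As a check of the tissue, the proximal tubule genes Lrp2 and Cubn had fold enrichments of 33.1 and 15.1 and the thick ascending limb gene Umod 20.8. Genes of other organs stood at 2.95 for Alb and 3.40 for Ins2, with no interval at Myh6. Markers of endothelium and immune cells were low, with Pecam1 at 2.03 and Ptprc at 1.90.

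**Figure D5:**
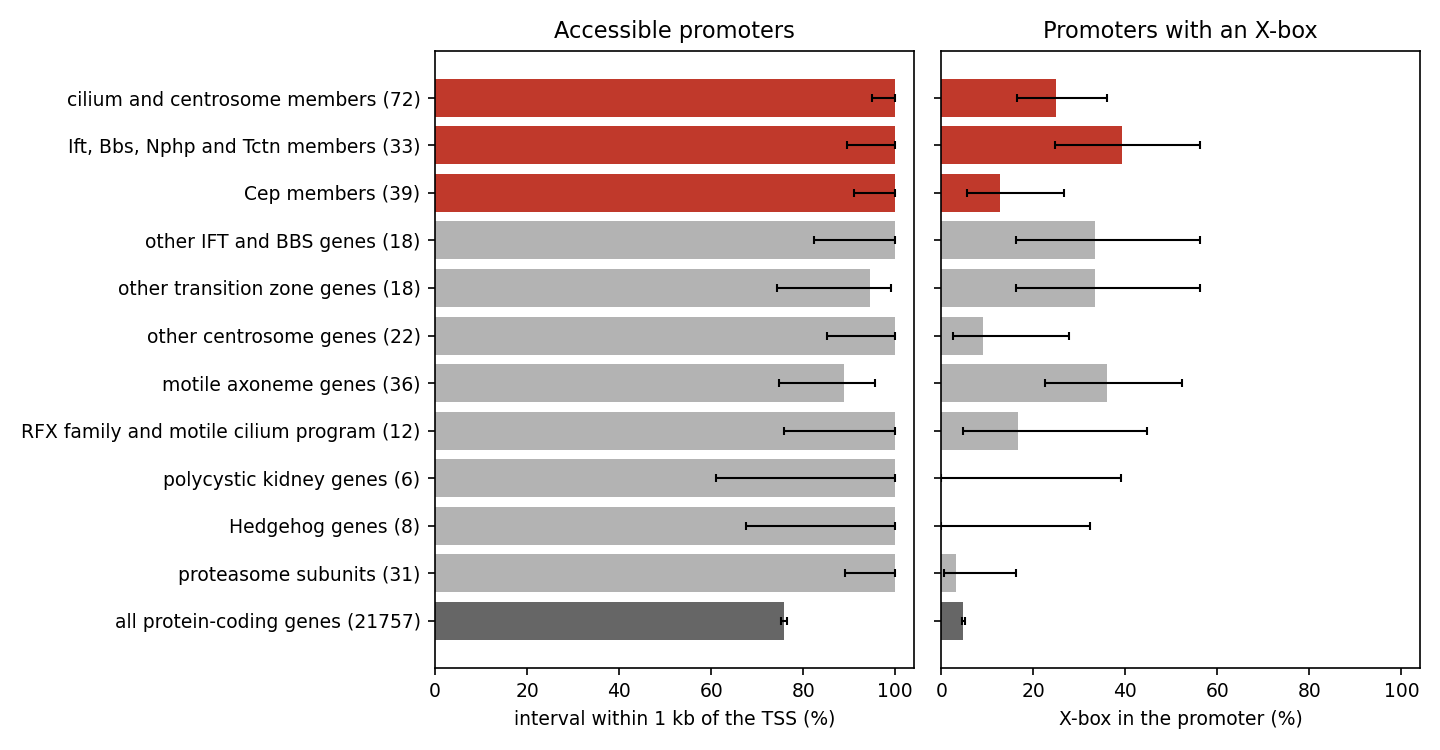
Share of genes with an accessible interval within 1 kb of the TSS (left, %) and with an X-box in the promoter (right, %) for the members (red), other gene lists (light grey) and all protein-coding genes (dark grey), with the number of genes in parentheses and Wilson intervals at a confidence level of 95%. An interval is found at all members and all 31 proteasome genes, while X-boxes are found in 39.4% of the Ift, Bbs, Nphp and Tctn promoters and 3.23% of the proteasome promoters.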

How the data were processed

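ATAC-seq libraries of kidney cortex (3 WT, 3 Acly cKO) were grouped from their labels. By their methods and processing notes, the authors used fastp for trimming, Bowtie2 2.3.4.3 for alignment to mm39, MACS3 3.0.0 for calling summits on unique reads without duplicates, and bedtools 2.29.1 for removing blacklisted regions. The deposited list gives for each summit the fold enrichment, a linear ratio made by the authors, the -log10 q, and the summit's offset within its interval. The deposited summits before filtering hold the same -log10 q. Both are pooled calls, so the depth of single libraries is unknown.

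Summits were grouped into 279569 distinct intervals, each with the fold enrichment and -log10 q of its top summit by q. A gene took the interval with the highest -log10 q within 1 kb of the TSS of its Ensembl canonical transcript in GENCODE M39 (GRCm39). Roles were assigned from general knowledge and are broad. All Ift, Bbs, Nphp and Tctn genes, the 10 highest and 10 lowest Cep genes and every gene with an X-box are named, except 3 members that are not reported here by name but are counted, and other genes come from written lists, of which 2 symbols (Hspb11, Cenpj) matched no gene. The members and lists were chosen with earlier results of these data known, so no list was tested. Poisson and Wilson intervals cover counting error only. On simulated data, 400 of 400 planted intervals and 1500 of 1500 planted X-boxes were found. Alternatives were other windows, thresholds, summits and starts, and other X-box rules. Python 3.11.15, numpy, pandas, scipy, pysam, numba and matplotlib were used.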

Additional observations from a re-analysis of the deposited data

How the results depend on the processing

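The number of members with an interval was 70 to 72 under the windows of 500 bp and 2 kb, the thresholds on -log10 q (2 and 5) and on fold enrichment (5), the other starts and the summit rules. Over all protein-coding genes the share ran from 66.2% (fold enrichment of at least 5) to 77.6% (window of 2 kb). Cep164 was lost in the window of 500 bp and under each threshold, and Ift70a2 under the fold enrichment threshold. The median fold enrichment of the members ran from 42.1 (summit nearest to the TSS) to 50.6 (fold enrichment of at least 5), and was 44.2 without shared intervals. Over all promoters with an interval the median ran from 29.7 (window of 2 kb) to 34.2 (fold enrichment of at least 5). Values over all promoters were not computed at the nearest summit or without shared intervals. The median -log10 q was 790 at the nearest summit and 842 without shared intervals, and the median width moved to 2470 bp. These member medians stayed within the interval of the main median.

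The count of X-boxes depends on the mismatches allowed. It was 8 with no mismatch (0.685% of all promoters) and 43 with 2 (30.9% of all promoters), so at 2 mismatches a match is common everywhere. With a spacer of 2 bases only it was 14 (2.47% of all promoters), and within 200 bp of the highest summit 19 (3.93% of promoters with an interval). There Nphp4 was lost and Ift70b and Cep83 were gained. In the RefSeq promoter table (GRCm38.p6), 55 members matched by symbol, and 16 had an X-box (5.90% of all), 14 of them also found here, with Cep44 and Cep83 added.

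No paired analysis was possible because the call is pooled and has no column for a single library. Leaving out a library was not possible either, and the unknown depth limits weak intervals such as that of Cep164.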
